A study of Mus musculus with 7 samples.

Results

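A set of 8 genes that mark B cells and plasma cells was followed in RNA from tumour-infiltrating regulatory T cells (Treg cells): Jchain, Mzb1, Igkc, Iglc2, Ighm, Cd79a, Cd79b and Pax5. They were taken by gene name, and all 8 were found among the 57180 genes of the deposited count table. The Treg cells had been sorted as FOXP3-high and FOXP3-low populations out of tumours of B16-F0, a mouse melanoma line, in Foxp3-Cre-YFP mice. In these mice the Foxp3 gene also drives Cre recombinase and a yellow fluorescent protein, and the labels give the genotype of every sample as WT. The labels state no age, no treatment, no gate of the sort, and no link between libraries and single mice. The groups held 4 FOXP3-low and 3 FOXP3-high bulk mRNA libraries, so the spread that p-values rest on is that between libraries and may be technical.

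B cells carry a membrane antibody, the B cell receptor, built from an immunoglobulin heavy chain and a kappa or lambda light chain and held by the signalling pair CD79A and CD79B. Plasma cells are the antibody-secreting end stage of the lineage. They switch off much of the B cell programme that the transcription factor PAX5 maintains, and they transcribe immunoglobulin genes at very high levels, so that a few plasma cells can contribute many immunoglobulin reads to a bulk library. Antibody genes are assembled from variable (V), diversity (D) and joining (J) segments placed before a constant region, and class switching exchanges the mu constant region for gamma, alpha or epsilon. Transcription through an unrearranged heavy chain locus, which gives sterile mu transcripts with no V segment, is also known from lymphocytes that are not B cells. Jchain and Mzb1 are not exclusive to plasma cells and are also known from plasmacytoid dendritic cells.

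The FOXP3-high libraries held far fewer transcripts of the plasma cell genes Jchain and Mzb1 and of the kappa light chain Igkc, and about 2.04-fold fewer of the mu heavy chain Ighm. The receptor subunits Cd79a and Cd79b were close to 1 CPM (read counts scaled to TMM library sizes) in both groups and did not pass the test. Lambda chain Iglc2 was found in each FOXP3-low library and had 0 counts in FOXP3-high. Pax5 was sparse in every library. Of the 8 genes, 6 passed the filter on low counts, and 4 of these were called lower in FOXP3-high and 0 higher, where 46.5% of all 15838 genes tested were called in either direction and 24.6% were called lower (quasi-likelihood test of edgeR with p adjusted by Benjamini-Hochberg, threshold 0.05). The FOXP3-high libraries lay below all FOXP3-low libraries for the same 4 genes, as they did for 26.8% of genes tested. Mzb1 passed the filter only through its FOXP3-low counts, so it could be called lower and not higher. In bulk RNA, fewer cells of a type and less RNA per cell cannot be told apart.

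**Figure D1:**
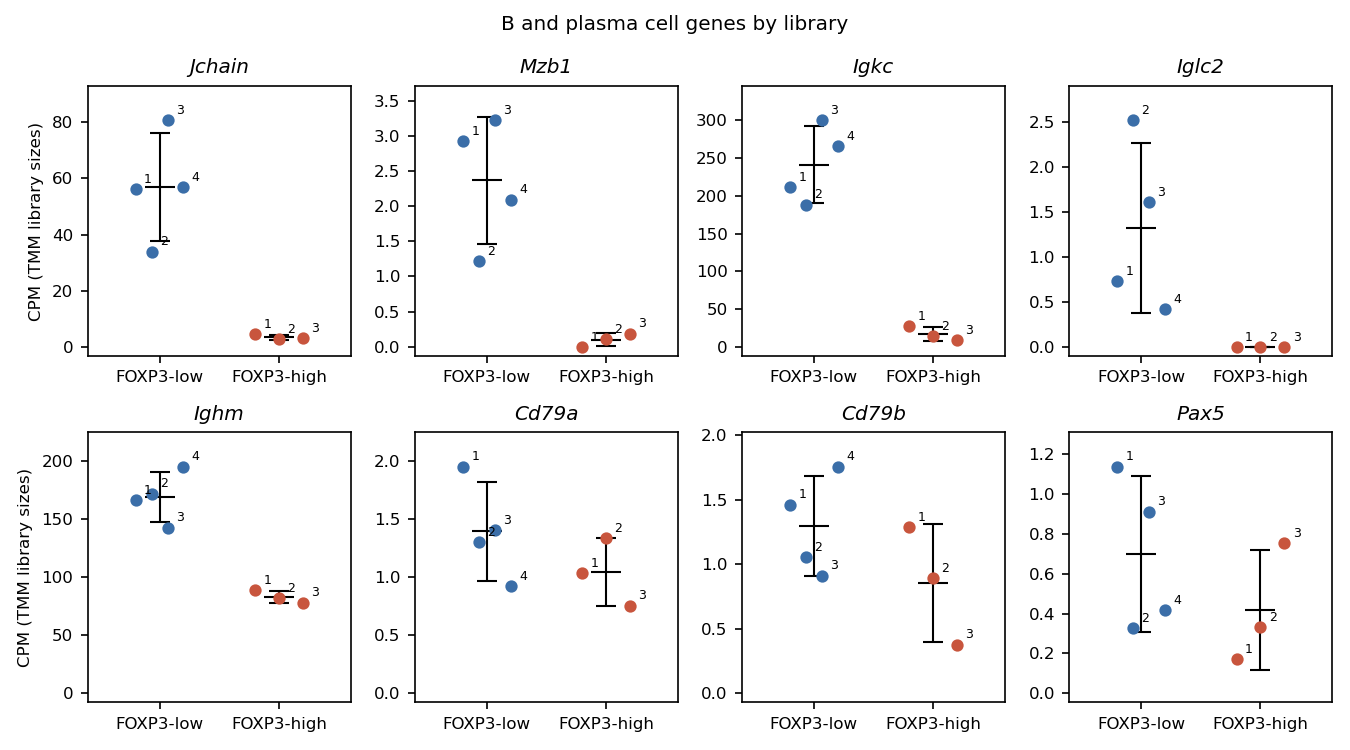
Level of the 8 genes in each library, in CPM on TMM library sizes, with blue points for FOXP3-low (n = 4) and red points for FOXP3-high (n = 3). Numbers beside points are replicate numbers, and black bars give the mean and SD. The groups do not overlap for Jchain, Mzb1, Igkc, Iglc2 and Ighm, and they overlap for Cd79a, Cd79b and Pax5.

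Foxp3 itself followed the labels, at 357 ± 44.3 CPM (SD, n = 4) in FOXP3-low and 698 ± 95.4 CPM (SD, n = 3) in FOXP3-high. Library totals ran from 9048771 to 14546999 counts. Other cell types' markers also moved between the groups. Of 18 macrophage and monocyte markers 16 were lower in FOXP3-high and 1 higher, and their summed level was 2511 to 3088 CPM in FOXP3-low against 752 to 787 CPM. All 14 dendritic cell and MHC class II markers were lower, at 2439 to 3761 CPM in sum against 205 to 336 CPM. All 7 tested neutrophil markers of 8 were also lower, at 2730 to 3209 CPM in sum against 98.0 to 238 CPM. The defining neutrophil marker Ly6g was not tested, at 0.396 ± 0.335 CPM (SD, n = 4) in FOXP3-low and 0 counts in FOXP3-high. T cell identity markers gave 15 higher and 1 lower of 17, at 3830 to 4249 CPM in sum against 5034 to 5731 CPM. All 10 melanoma and melanocyte markers were higher, at 1404 to 2514 CPM in sum against 3405 to 4681 CPM. The part of these differences in the immunoglobulin results was not tested. Scaling to the 17 T cell markers moved the median of all genes by -0.38 on the log2 scale and turned the split of calls from 3459 higher and 3898 lower to 1093 higher and 7160 lower, and under it the same 4 B and plasma cell genes were called lower.

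Jchain (ENSMUSG00000067149, chromosome 5, 88667668 to 88675750, minus strand, GRCm39) encodes the small protein that joins IgM pentamers and IgA dimers for secretion. In FOXP3-low its levels were 56.1, 33.9, 80.8 and 57.0 CPM in replicates 1 to 4, and in FOXP3-high 4.47, 2.78 and 3.02 CPM in replicates 1 to 3. The highest FOXP3-high library lay well under the lowest FOXP3-low library, and FOXP3-low replicate 3 was the highest of all. The log2 fold change, FOXP3-high minus FOXP3-low, was -4.04 ± 0.319 (SE), a 16.4-fold lower level (edgeR adjusted p = 7.77e-06). The FOXP3-high values rest on 25 to 52 counts per library.

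Mzb1 (ENSMUSG00000024353, chromosome 18, 35780320 to 35782420, minus strand, GRCm39) encodes a chaperone of the endoplasmic reticulum that helps antibody assembly and secretion in marginal zone B cells and plasma cells. Its levels in FOXP3-low were 2.93, 1.22, 3.22 and 2.09 CPM, with replicate 3 again highest and replicate 2 again lowest, as for Jchain. FOXP3-high held 0, 1 and 2 counts in replicates 1 to 3. The pooled rate was 25.0-fold higher in FOXP3-low, with an exact interval of 8.35 to 123 at the 95% level that covers counting error only. The fitted log2 fold change was -4.47 ± 0.679 (SE). It became -5.32 without FOXP3-high replicate 3 and -5.13 with both replicates 3 left out. After a filter that Mzb1 passed only through FOXP3-low, a test could call it lower and not higher. With no filter the log2 fold change was -4.51 (edgeR adjusted p = 2.33e-05). Mzb1 overlaps the gene model Gm50318 on the same strand, which had 423 counts over FOXP3-low and 79 over FOXP3-high, so the division of reads between them is uncertain.

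Igkc (ENSMUSG00000076609, chromosome 6, 70703419 to 70703950, plus strand, GRCm39) is the constant region of every kappa light chain, the light chain of most mouse antibodies. It stood at 211, 188, 300.4 and 266 CPM in FOXP3-low replicates 1 to 4. In FOXP3-high it stood at 27.3, 13.9 and 9.34 CPM in replicates 1 to 3. FOXP3-high replicate 1 was the highest of its group and still far below every FOXP3-low library, and the groups did not overlap. The test gave a log2 fold change of -3.82 ± 0.330 (SE, 14.2-fold lower, edgeR adjusted p = 1.35e-05). Without FOXP3-high replicate 1 the log2 fold change was -4.41.

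Igkc was next set against Jchain within each library. Igkc counts per Jchain count ran from 3.72 to 5.55 across the FOXP3-low libraries and from 3.09 to 6.12 across FOXP3-high, so the ranges overlapped (exact two-sided permutation test, p = 0.80, adjusted 0.857). Jchain counts per Cd79a count, ran from 26.1 to 61.9 across FOXP3-low against 2.08 to 4.33 across FOXP3-high, without overlap (exact two-sided permutation test, p = 0.0571). That is the smallest p that 3 libraries against 4 can give, and it was 0.0857 after Benjamini-Hochberg adjustment over the 9 ratios and shares tested this way. The Cd79a counts under this ratio were 8 to 24 per library.

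Iglc2 (ENSMUSG00000076937, chromosome 16, 19017146 to 19019101, minus strand, GRCm39) is a constant region of the rarer lambda light chain. It had 9, 31, 23 and 5 counts in FOXP3-low replicates 1 to 4 and 0 counts in all FOXP3-high libraries, and it did not pass the filter. Against a floor of 3 counts over the FOXP3-high group, the pooled FOXP3-low level of 1.34 CPM was at least 13.9-fold higher. The constant regions of Iglc2 and Iglc3 are 95.4% identical over 452 aligned bases of the GENCODE M21 transcripts, so reads may be split between them. Iglc3 was lower in FOXP3-high too, at 2.68 ± 1.29 CPM (SD, n = 4) against 0.249 ± 0.169 CPM (SD, n = 3). It passed the filter only through FOXP3-low, so no test is given for it. For Iglc3 the log2 fold change was -3.35, and -4.06 without FOXP3-high replicate 1 or -2.71 with both replicates 3 left out.

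Lambda usage differed between libraries of the same group. Iglc1, a lambda constant region often used with the V segment Iglv1, had 401, 4, 89 and 70 counts in FOXP3-low replicates 1 to 4 and 1, 0 and 35 in FOXP3-high replicates 1 to 3. With such spread Iglc1 did not pass the test, at a log2 fold change of -3.28 ± 1.38 (SE, edgeR adjusted p = 0.0799). It passed without FOXP3-high replicate 3 (log2 fold change -7.58, adjusted p = 0.0279), without FOXP3-low replicate 2 (-3.66, adjusted p = 0.0333), with both replicates 3 left out (-7.77, adjusted p = 0.0210) and with no filter (-3.32, adjusted p = 0.0162). Without FOXP3-low replicate 1 it was -1.83 (adjusted p = 0.279). Iglc1 passed the filter only through FOXP3-low, so the filter favoured a call lower over a call higher. Lambda made up 14.1% of light chain constant counts in FOXP3-low replicate 1 (exact 95% interval 12.9% to 15.4%) and 2.91% to 3.77% in the other FOXP3-low libraries. In FOXP3-high it was 1.85% and 1.57% in replicates 1 and 2 and 26.7% in replicate 3 (exact 95% interval 19.4% to 34.96%, 36 of 135 counts). Intervals of this kind cover counting error only, since reads from the same cell or copied in the polymerase chain reaction are not independent molecules.

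Short J segments sit between V segments and the constant region in light chain transcripts, and their reads therefore come from the same molecules as those of Igkc. The germline sequences of the 4 functional kappa J segments are shown because each can be counted on its own. They were taken by gene ID from the GENCODE M21 transcripts (plus strand, GRCm38, with Igkj1 at chr6:70722562-70722599 and Igkj4 at chr6:70723548-70723585). Capitals mark the bases that encode the Phe-Gly-X-Gly turn of the joining region.
Igkj1: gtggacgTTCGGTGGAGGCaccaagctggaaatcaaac
Igkj2: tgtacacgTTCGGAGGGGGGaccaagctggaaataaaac
Igkj4: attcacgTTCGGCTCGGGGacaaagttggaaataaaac
Igkj5: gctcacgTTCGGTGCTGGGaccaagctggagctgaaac

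Of these kappa J segments, Igkj1, Igkj2, Igkj4 and Igkj5 passed the filter only through FOXP3-low, so no test is given for them. Their reads come from the same molecules as those of Igkc, so their levels are not separate from that of Igkc. Igkj1 held 350 counts over the FOXP3-low libraries and 24 over FOXP3-high (log2 fold change -3.16 ± 0.395). FOXP3-high replicate 1 held 15 of the 24, and without it the log2 fold change was -3.89. Igkj5 held 235 and 27 counts (log2 fold change -2.43, and -3.48 without FOXP3-high replicate 1). Igkj2 held 197 and 16 (-2.82, and -2.20 or -4.30 without FOXP3-high replicate 1 or 2). Igkj4 held 80 and 12 (-1.997, and -3.25 without FOXP3-high replicate 1). With both replicates 3 left out the log2 fold change of Igkj4 was -1.06. The segments differ in only part of their bases, as the sequences show, and reads that fall wholly in the shared stretches cannot be assigned to 1 of them. Igkj3, whose sequence lacks the Phe-Gly-X-Gly bases, had 8 counts in FOXP3-low and 1 in FOXP3-high. The 160 kappa V segments together held 62.0 to 78.4 counts per 100 Igkc counts across FOXP3-low, against 66.7, 37.6 and 36.4 in FOXP3-high replicates 1 to 3, and the ranges overlapped (exact two-sided permutation test, p = 0.114, adjusted 0.147).

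Ighm (ENSMUSG00000076617, chromosome 12, 113382178 to 113386350, minus strand, GRCm39), the mu constant region of IgM, differed much less between the groups than Igkc did. It stood at 166, 172, 142 and 195 CPM in FOXP3-low replicates 1 to 4 and at 88.6, 81.8 and 78.0 CPM in FOXP3-high replicates 1 to 3. The FOXP3-high libraries lay close together, and all were below the lowest FOXP3-low library. The log2 fold change was -1.03 ± 0.0999 (SE, edgeR adjusted p = 2.94e-05). FOXP3-low replicate 3, the highest library for Jchain, Mzb1 and Igkc, was the lowest FOXP3-low library for Ighm.

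The balance of Ighm to Igkc therefore differed between the groups. Ighm counts per Igkc count ran from 0.474 to 0.911 across FOXP3-low, against 3.24, 5.88 and 8.34 in FOXP3-high replicates 1 to 3 (exact two-sided permutation test, p = 0.0571, the smallest possible here; adjusted 0.0857). Per kilobase of counted length, Igkc exceeded Ighm 454 to 89.5 CPM in mean level in FOXP3-low, while in FOXP3-high Ighm was at 43.9 and Igkc at 31.7 CPM per kilobase. The order on this scale was not the same in all FOXP3-high libraries, since replicate 1 had Igkc at 51.4 and Ighm at 47.0 CPM per kilobase, and Igkc was the lower of the pair in replicates 2 and 3. By the same scale Jchain went from 22.6 to 1.36, and Cd79a from 0.956 to 0.714 CPM per kilobase.

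**Figure D2:**
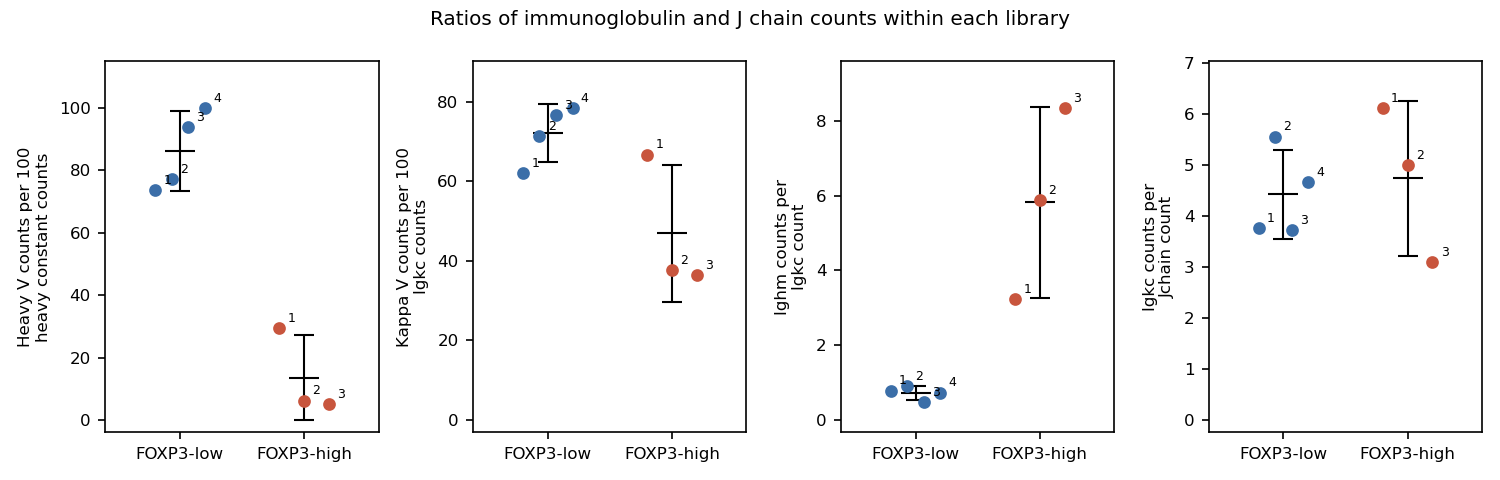
Ratios of counts within each library, from left to right heavy chain V counts per 100 heavy chain constant counts, kappa V counts per 100 Igkc counts, Ighm counts per Igkc count and Igkc counts per Jchain count, with blue points for FOXP3-low (n = 4), red points for FOXP3-high (n = 3), replicate numbers beside them and bars for mean and SD. Heavy chain V counts and Ighm per Igkc do not overlap between the groups, and the other ratios do.

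Most heavy chain constant counts in FOXP3-high came from Ighm. Its share of all heavy chain constant counts ran from 38.8% to 52.6% across FOXP3-low and was at least 91.5% and at most 96.6% in FOXP3-high, without overlap (exact two-sided permutation test, p = 0.0571, adjusted 0.0857). The gamma regions of IgG made up 28.4% to 32.1% across FOXP3-low against 0.538% to 1.12%. Igha, the alpha region of IgA, made up 15.2% to 30.4% against 2.46% to 7.35%. Of 13 constant regions fixed as a list, 8 passed the filter, 7 were called lower and 0 higher, beside 24.6% of all genes tested called lower. The 8 had a median log2 fold change of -3.78, beside 0.01 for all genes tested. Ighg2c, Ighg2b, Ighg3, Iglc1 and Iglc3 passed the filter only through FOXP3-low, so the filter in part fixed this count and median.

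Ighg2c, the IgG2c region of C57BL/6 mice, had 799, 1235, 1040 and 792 counts in FOXP3-low replicates 1 to 4. It had 2, 7 and 4 in FOXP3-high replicates 1 to 3 (log2 fold change -7.47 ± 0.318). The log2 fold changes of Igkc, Iglc3 and Ighm were smaller in size. Igha stood at 80.7 ± 25.2 CPM (SD, n = 4) against 5.06 ± 2.66 CPM (SD, n = 3), and the test gave -4.00 ± 0.390 on the log2 scale (adjusted p = 2.97e-05 by edgeR). The number of Igha counts per Jchain count was 1.38 to 1.47 in all 4 FOXP3-low libraries and 1.48, 2.36 and 0.656 in FOXP3-high replicates 1 to 3. Ighg2b had 185, 41, 541 and 350 counts against 4, 0 and 1. Both Ighg2c and Ighg2b passed the filter only through FOXP3-low, so no test is given for them. The log2 fold change of Ighg2b was -6.98, and -8.46 without FOXP3-high replicate 1 or -6.28 with both replicates 3 left out, and that of Ighg2c was -8.06 without FOXP3-high replicate 2. Ighg1 was not spread evenly in FOXP3-low, with 284, 0, 4 and 173 counts in replicates 1 to 4, and had 0 counts in FOXP3-high. Ighd, expressed by resting mature B cells, had 16 counts over FOXP3-low, 4 over FOXP3-high and did not pass the filter, and Ighe had 0 counts in every library.

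V segments are needed to make an antibody, so their counts were set against those of the constant regions. Heavy chain V segments held 73.7, 77.1, 93.9 and 99.96 counts per 100 heavy constant counts in FOXP3-low replicates 1 to 4, and 29.3, 6.23 and 5.03 in FOXP3-high replicates 1 to 3 (exact two-sided permutation test, p = 0.0571, adjusted 0.0857). The FOXP3-high libraries thus carried Ighm with few V counts beside it, at 31.7, 6.80 and 5.21 heavy V counts per 100 Ighm counts. FOXP3-high replicate 1 supplied 77.9% of the heavy V counts of its group. In CPM, the summed heavy V segments were at 311 ± 67.8 in FOXP3-low and 12.6 ± 13.5 in FOXP3-high.

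The D and J segments of the heavy chain locus lie between the V segments and Ighm and did not all move alike. Their sequences are shown because 1 of them, the D segment nearest to the J segments, moved in the other direction. They come by gene ID from GENCODE M21 (minus strand, GRCm38, with Ighd4-1 at chr12:113430528-113430538 and Ighj4 at chr12:113428514-113428567), and capitals mark the bases of the Trp-Gly-X-Gly turn in the J segments and the whole of the D segment.
Ighd4-1: CTAACTGGGAC
Ighj1: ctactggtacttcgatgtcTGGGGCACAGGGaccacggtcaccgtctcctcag
Ighj2: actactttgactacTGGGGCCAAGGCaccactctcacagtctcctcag
Ighj3: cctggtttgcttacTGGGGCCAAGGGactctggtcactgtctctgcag
Ighj4: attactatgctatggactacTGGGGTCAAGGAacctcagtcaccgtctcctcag

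Ighd4-1, named after its values were seen, lies just before the J segments in the unrearranged locus and is removed when another D segment joins a J segment. It had 13, 23, 16 and 21 counts in FOXP3-low replicates 1 to 4 and 32, 31 and 24 in FOXP3-high replicates 1 to 3, so all FOXP3-high counts lay above those of FOXP3-low in spite of smaller libraries. The log2 fold change was 0.95 ± 0.310 (SE, edgeR adjusted p = 0.0296), and the call was lost in 8 alternatives, among them scaling to T cell identity genes (0.57, adjusted p = 0.126), the DESeq2 Wald test (adjusted p = 0.0669) and no filter (adjusted p = 0.0695). It was also lost without FOXP3-low replicate 1 or 3, without FOXP3-high replicate 1 or 2, and with both replicates 3 left out, with adjusted p between 0.0630 and 0.0991. The J segments had more counts in FOXP3-low. Ighj1, Ighj2, Ighj3 and Ighj4 passed the filter only through that group, so no test is given for them. Ighj1 had 138 counts over FOXP3-low against 5, Ighj2 118 against 2, and Ighj4 118 against 7. Ighj3 had 72 and 11 counts, at a log2 fold change of -1.93. Without FOXP3-high replicate 2 or 3 the log2 fold change of Ighj3 was -2.56 or -1.34, and with both replicates 3 left out it was -0.97.

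Which V segments were read differed from library to library. The heavy V segment with the most counts was a different one in each of the 7 libraries. In FOXP3-low it took a modest part of the heavy V counts, namely Ighv9-3 at 7.005% in replicate 1, Ighv1-53 at 18.0% in replicate 2, Ighv1-69 at 9.14% in replicate 3 and Ighv11-2 at 11.9% in replicate 4. In FOXP3-high it took more, with Ighv5-6 at 34.9% of 327 counts in replicate 1 (exact 95% interval 29.7% to 40.3%), Ighv1-76 at 44.0% of 50 counts in replicate 2 (30.0% to 58.7%) and Ighv3-2 at 37.2% of 43 counts in replicate 3 (23.0% to 53.3%). The FOXP3-high totals are small, and a top share is higher by its nature where fewer molecules were read, so this difference was not tested.

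The V segments shared between libraries were counted as a description, since the FOXP3-high libraries, with 327, 50 and 43 heavy V counts, have too few counts for much sharing to be seen. Of 183 heavy V segments in the table, 41 had counts in all 4 FOXP3-low libraries and 0 had counts in all 3 FOXP3-high libraries. With a minimum of 10 counts, 88 were found in at least 1 FOXP3-low library and 11 in at least 1 FOXP3-high library, and 0 in more than 1 FOXP3-high library. Only 1 of the 48 segments seen in FOXP3-high had no count in FOXP3-low. Many V segments are near-identical copies of each other, and reads that fit several may be lost or misplaced, so single segments are uncertain.

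**Figure D3:**
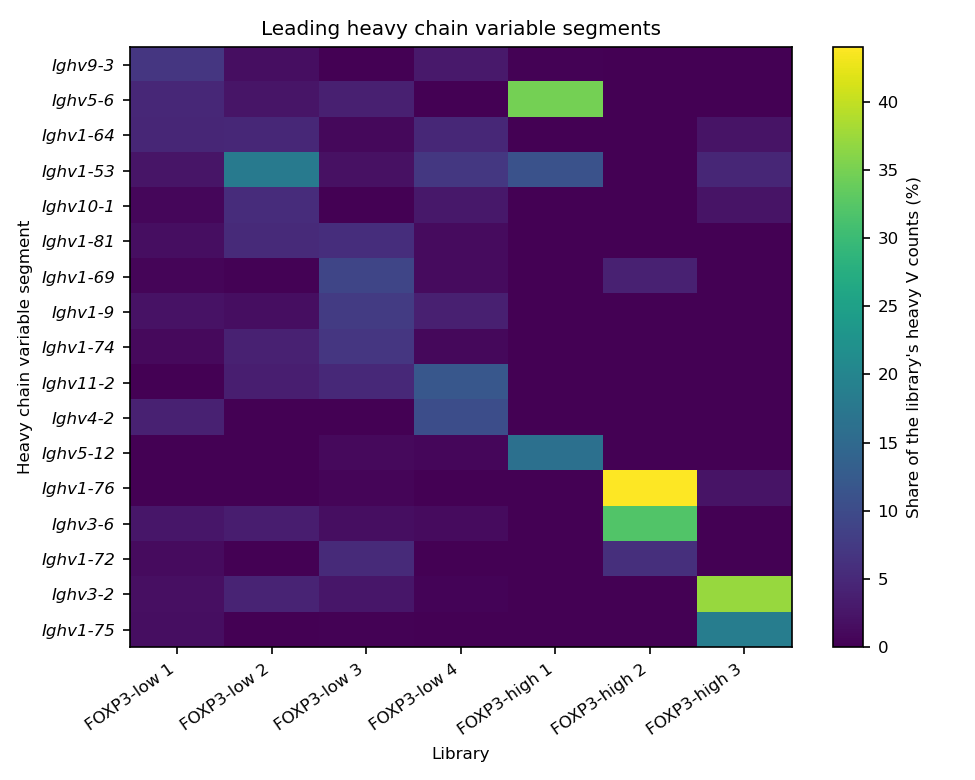
Share of each library's heavy V counts, in percent by colour, taken by every segment that ranks among the first 3 in at least 1 library. In the FOXP3-high columns 1 or 2 segments hold most of the colour, with Ighv1-76 at 44.0% in replicate 2, and the bright segments differ between the 3 columns.

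By total counts the leading heavy V segments were Ighv1-53 and Ighv11-2. Ighv1-53, of the large V1 family, had 81, 557, 98 and 336 counts in FOXP3-low replicates 1 to 4 and 36, 0 and 2 in FOXP3-high replicates 1 to 3. Ighv11-2, a segment known from B-1 cells, which make natural antibodies, had 0, 114, 249 and 554 counts in FOXP3-low and 0 in FOXP3-high. FOXP3-low replicate 1 thus lacked the segment that led replicate 4. Both passed the filter on low counts only through FOXP3-low, so no test is given for either. Ighv1-53 had a log2 fold change of -4.19 ± 1.04. Its log2 fold change was -7.62 without FOXP3-high replicate 1 and -3.53 without FOXP3-low replicate 2.

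Among kappa V segments, Igkv8-30 had 179, 288, 325 and 327 counts in FOXP3-low and 68, 0 and 2 in FOXP3-high (log2 fold change -3.36 ± 0.808). Igkv8-30 passed the filter only through FOXP3-low, so no test is given for it. FOXP3-high replicate 1 held 68 of the group's counts, and without it the log2 fold change of Igkv8-30 was -7.64. Igkv10-96 had 361, 0, 103 and 423 counts in FOXP3-low and 0, 1 and 1 in FOXP3-high, so that FOXP3-low replicate 2 stood with the FOXP3-high libraries. It passed the filter only through FOXP3-low, and no test is given for it. FOXP3-high replicate 2 drew 27 of its 47 kappa V counts from Igkv1-117 and 19 from Igkv10-94. Among the 3 lambda V segments Iglv1 led, with 380, 19, 139 and 82 counts in FOXP3-low and 3, 0 and 23 in FOXP3-high. Iglv1 passed the filter only through FOXP3-low, so no test is given for it. The log2 fold change of Iglv1 went from -3.87 to -6.31 without FOXP3-high replicate 3, to -6.40 with both replicates 3 left out and to -2.84 without FOXP3-low replicate 1. Iglv3 had 50, 12, 28 and 27 counts against 7, 0 and 1. It passed the filter only through FOXP3-low, so no test is given for it. Its log2 fold change was -3.15, and -5.26 without FOXP3-high replicate 1.

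Cd79a and Cd79b encode the pair of membrane proteins that carry the B cell receptor signal into the cell. Cd79a (ENSMUSG00000003379, chromosome 7, 24596806 to 24601622, plus strand, GRCm39) was at 1.95, 1.30, 1.40 and 0.920 CPM in FOXP3-low and 1.03, 1.34 and 0.755 CPM in FOXP3-high. Cd79b (ENSMUSG00000040592, chromosome 11, 106202167 to 106205355, minus strand, GRCm39) was at 1.46, 1.06, 0.911 and 1.76 CPM in FOXP3-low and 1.29, 0.891 and 0.378 CPM in FOXP3-high. The groups overlapped for both genes. Their log2 fold changes were -0.43 ± 0.372 for Cd79a (edgeR adjusted p = 0.382) and -0.58 ± 0.453 for Cd79b (edgeR adjusted p = 0.327). With 4 to 24 counts per library the precision is low. Pooled FOXP3-low over FOXP3-high rates were 1.36 for Cd79a (exact 95% interval 0.886 to 2.14) and 1.48 for Cd79b (0.930 to 2.41), which reach no higher than 2.41 from counting error alone.

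Pax5 (ENSMUSG00000014030, chromosome 4, 44524757 to 44710408, minus strand, GRCm39), which commits cells to the B lineage and is lost in plasma cells, had 14, 4, 13 and 5 counts in FOXP3-low and 2, 3 and 8 in FOXP3-high. The groups overlapped, and the gene was not tested because it did not pass the filter. The pooled rate was 1.70 times higher in FOXP3-low, with an exact interval from 0.881 to 3.49. A difference was not detectable at this depth. Defining surface markers of mature B cells were as sparse. Summed over a group, Ms4a1 (CD20) had 15 counts in FOXP3-low against 2 in FOXP3-high, Cr2 (CD21) 9 and 3, Fcer2a (CD23) 11 and 8, and the kinase Blk 16 and 2, and none passed the filter.

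**Figure D4:**
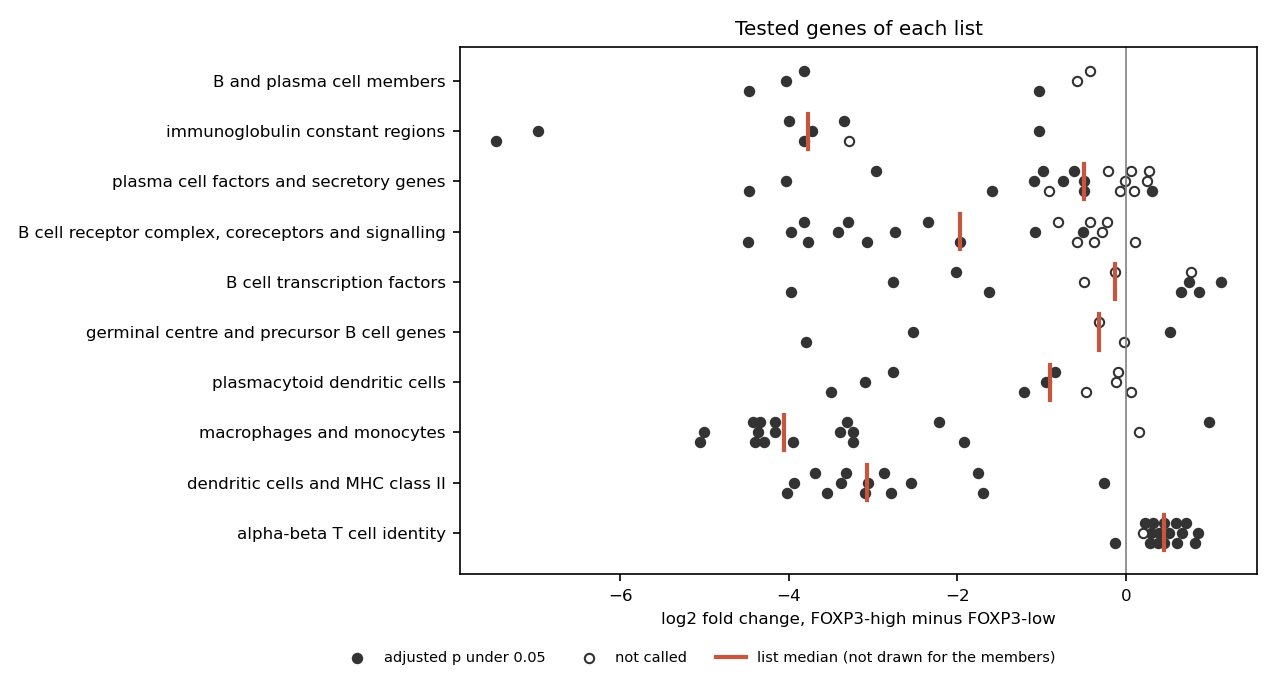
Log2 fold change, FOXP3-high minus FOXP3-low, of the tested genes of each list, with filled points for an edgeR adjusted p under 0.05, open points for genes not called and red bars for list medians. The single genes furthest left are the constant regions Ighg2c at -7.47 and Ighg2b at -6.98, the macrophage median of -4.06 lies left of the constant region median of -3.78, and B cell transcription factors lie on both sides of 0.

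The wider lists around these genes are read against all genes tested, of which 24.6% were called lower and 46.5% in either direction. Of 24 genes of the B cell receptor complex, its coreceptors and its signalling, 19 were tested and 12 were called lower and 0 higher, beside 24.6% of all genes lower (median log2 fold change -1.97, beside 0.01 for all genes). They included Pik3ap1, an adaptor for phosphoinositide 3-kinase, from 229 ± 17.9 to 34.1 ± 4.22 CPM (edgeR adjusted p = 1.23e-07), and the kinases Lyn, from 141 ± 13.1 to 35.8 ± 5.28 CPM (adjusted p = 1.10e-06), and Syk, from 195 ± 15.6 to 12.3 ± 5.26 CPM (adjusted p = 1.16e-06). These genes also serve in myeloid cells. Fcrla, Ly86 and Blnk, among those called lower, passed the filter only through FOXP3-low, so the filter in part fixed this count and median. Cd22, an inhibitory coreceptor, was at 2.31 ± 0.364 and 1.93 ± 0.841 CPM and was not called (adjusted p = 0.522).

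Of 21 plasma cell factors and secretory genes, 19 were tested, and 10 were called lower and 1 higher, beside 46.5% of all genes called either way (median -0.50). Mzb1 and Eaf2, among those called lower, passed the filter only through FOXP3-low, so the filter in part fixed this count. Creld2, which assists protein folding in the secretory pathway, fell from 103 ± 3.48 to 48.1 ± 2.52 CPM (edgeR adjusted p = 1.19e-06), and the surface receptor Slamf7 from 49.2 ± 6.39 to 6.23 ± 1.76 CPM (adjusted p = 1.78e-06). Xbp1, the transcription factor that expands the secretory machinery, fell from 152 ± 9.68 to 90.6 ± 2.95 CPM (adjusted p = 1.08e-05). The factors Prdm1 and Irf4, which drive plasma cell fate and also act in effector Treg cells, were not called, at 55.9 ± 4.90 and 55.4 ± 7.39 CPM for Prdm1 and 45.0 ± 4.84 and 48.1 ± 2.54 CPM for Irf4. Under scaling to T cell identity genes Prdm1 was called lower (log2 fold change -0.40, adjusted p = 0.00797). Xbp1, Prdm1 and Irf4 were named after their values were seen.

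Of 13 B cell transcription factors, 11 were tested, with 4 higher and 4 lower, beside 24.6% of all genes lower, and a median of -0.12. Spi1, which encodes PU.1 of myeloid and B cells, fell from 63.8 ± 9.33 to 3.98 ± 1.13 CPM (edgeR adjusted p = 5.27e-07), and Irf8 from 257 ± 17.9 to 82.9 ± 9.40 CPM (adjusted p = 8.18e-07). Ikzf3, which encodes Aiolos of lymphocytes, rose from 234 ± 14.9 to 426 ± 41.2 CPM (adjusted p = 1.13e-05). Pou2af1, the B cell coactivator OBF-1, named after its values were seen, fell from 1.71 ± 0.555 to 0.420 ± 0.301 CPM. Its log2 fold change of -2.01 was -2.76 without FOXP3-high replicate 3 and -2.64 with both replicates 3 left out. Of 13 germinal centre and precursor B cell genes, 2 were not matched by name and 5 were tested, with 1 higher (Mef2b) and 2 lower (Gcsam and Dntt). Gcsam, a germinal centre adaptor, fell from 3.65 ± 0.954 to 0.240 ± 0.209 CPM. Dntt, the enzyme that adds bases during V(D)J joining, fell from 2.02 ± 0.594 to 0.321 ± 0.403 CPM. Gcsam, Dntt and Pou2af1 passed the filter only through FOXP3-low. These genes could thus be called lower and not higher, and no p-value is given for them. For Dntt the log2 fold change was -2.53, and -4.21 without FOXP3-high replicate 1, which at 0.774 CPM was the highest of its group. Mef2b rose from 16.1 ± 2.76 to 23.1 ± 1.47 CPM (adjusted p = 0.0121), a call that scaling to T cell identity genes removed (log2 fold change 0.14, adjusted p = 0.485).

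Plasmacytoid dendritic cell markers were checked because Jchain and Mzb1 occur there. Of 11, 10 were tested and 6 were called lower and 0 higher, beside 24.6% of all genes lower, with summed levels of 197 to 223 CPM in FOXP3-low against 153 to 158 CPM. Siglech and Klk1 were among those that passed the filter only through FOXP3-low, so the filter in part fixed this count. Siglech, a defining surface lectin of these cells, fell from 5.43 ± 1.42 to 0.770 ± 0.391 CPM, and no test is given for it. Lair1 fell from 31.8 ± 7.04 to 3.67 ± 1.05 CPM (edgeR adjusted p = 5.98e-06), and Lag3, which Treg cells also carry, from 20.2 ± 0.839 to 10.5 ± 0.991 CPM (adjusted p = 6.12e-05). The part of these cells in the Jchain and Mzb1 values was not tested.

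The genes whose profile over the 7 libraries was most like each of the 6 genes that passed the filter were found by the root mean square difference of log2(CPM + 0.5), each profile centred on its own mean, among about 12562 genes of at least 1 CPM. Immunoglobulin genes and predicted genes with Gm or Rik names were left out of the candidates. Igkc, at 0.33 from Jchain, could thus not be named for it. Among the rest, nearest to Jchain were Wdfy4 (0.32), Septin3 (0.33) and Gatm (0.37). Nearest to Igkc were Septin3 (0.31), Jchain itself (0.33) and Hk3 (0.33). Nearest to Ighm were Banf1 (0.07), Bcl2a1d (0.08) and Fam72a (0.09). Cds1 (0.14), Ngfr (0.20) and Hr (0.22) were nearest to Mzb1. Iscu, Sfmbt2 and Gstt2 (0.11 to 0.12) were nearest to Cd79a, and Tmem116, Tarbp1 and B3galt4 (0.11 to 0.16) to Cd79b. Promoter windows of 300 bases from RefSeq (GRCm38.p6, 250 before to 50 after the start) were given for 3 of the 8 genes, Jchain, Cd79a and Pax5. On either strand none of the 3 held the octamer ATTTGCAT, the EBF motif CCCNNGGG or the ETS motif GAGGAAG, which were found in 1.74%, 13.7% and 13.6% of 32851 windows, and this says nothing of binding elsewhere.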

How the data were processed

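RNA was measured in 4 FOXP3-low and 3 FOXP3-high samples, grouped and numbered by their titles. Per the labels' protocols, TRIzol RNA went into stranded mRNA libraries. The authors deposited whole-number counts per gene without normalization. The submitters' processing notes name featureCounts, STAR 2.5.3a and fastp 0.23.4 as tools, with GRCm39 and GRCh38 as builds. Not given in the sources used here were the strand setting and the handling of shared reads. The deposited length column, another value in bases per gene, was used only for levels per kilobase. Columns of sample values left unmapped numbered 0.

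Counts were tested in R 4.3.3 with edgeR 4.0.16 (filterByExpr at 10 counts, and 15 in total, TMM, glmQLFit and glmQLFTest, no block) over 15838 genes. Benjamini-Hochberg adjustment ran over all of them. Each SE is the size of the log2 fold change over the root of its F statistic. DESeq2 1.42.0 and limma 3.58.1 were alternatives. Permutation tests and exact Clopper-Pearson intervals used scipy 1.17.1. The edgeR step was tested on simulated data.

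The members, gene lists and tests were chosen with earlier results of these data known. Permutation tests of within-library ratios were added after the data were seen, where a description alone had been planned. Beside the 8 genes, the genes named were up to 3 per list with the smallest adjusted p under 0.05, the 2 heavy, kappa and lambda V segments with the most counts, and the 3 nearest profiles. Constant regions, J segments, the leading V segments of a library and single markers were added after their values were seen. Erythroid markers gave 0 called of 3 tested by edgeR, also 0 at an unadjusted p under 0.05, with Hbb-bs at 11.8 and 8.99 CPM and Hba-a1 at 5.72 and 4.13 CPM. Hba-a1 was called lower with T cell identity scaling (log2 fold change -0.87, adjusted p = 0.0364).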

Additional observations from a re-analysis of the deposited data

Results flagged for a closer look

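In FOXP3-low, 2 of 104 quantities checked had 1 library far from the other 3, by Dixon's test of the gap against the group's range. The lambda share of light chain constant counts was 14.1% in replicate 1 and at most 3.77% in the others. Gm50318, the gene model around Mzb1, was at 6.94 CPM in replicate 4, below the other 3. Chance alone gives such a gap in about 1 of 20 groups checked.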

How the results depend on the processing

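Jchain, Igkc, Ighm and Mzb1 were called lower in every alternative in which they were tested, and Cd79a and Cd79b in none. In the alternatives that used the filter, Mzb1 passed it only through FOXP3-low. Log2 fold changes ranged from -4.43 to -3.72 for Jchain, -4.41 to -3.40 for Igkc, -1.40 to -0.93 for Ighm and -5.32 to -3.89 for Mzb1. The number of the 8 genes called lower was 3 with at least 50 counts in 3 libraries, where only 3 were tested, and 5, with Iglc2 added, with no filter, with the DESeq2 Wald test and without any 1 FOXP3-high library. Where 1 FOXP3-high library was left out, Iglc2 passed the filter only through FOXP3-low, so it could be called lower and not higher. The count of changed genes was 7357, and 6392 to 6890 when 1 library was left out. The labels do not say that a replicate number pairs samples. Deviations from the group means correlated at -0.23, 0.0948 and 0.659 for numbers 1, 2 and 3. These few values cannot decide on pairing, because deviations within a group must cancel. With the replicate block 7029 genes were called and Ighm was at -0.95. Iglc1 was called with the block (edgeR adjusted p = 0.0360). Prdm1, not called at -0.02, was at 0.0337 with upper quartile factors, 0.0508 with total counts and from -0.0988 to 0.0442 when 1 library was left out. Irf4, not called at 0.09, was at -0.29 with T cell identity scaling. The cause of these changes was not tested. Depth limits Cd79a, Cd79b, Pax5, Iglc2 and single V segments.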
